A study of Mus musculus with 24 samples.

Results

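The dystrophin-glycoprotein complex was followed through 8 transcripts in plantaris, a fast hindlimb muscle: Dmd (dystrophin), Utrn (utrophin), Dtna (alpha-dystrobrevin), Dag1 (dystroglycan), Sgca, Sgcb and Sgcd (alpha-, beta- and delta-sarcoglycan) and Sspn (sarcospan). The members were chosen by gene symbol, and all 8 were among the 47643 gene IDs of the count table. All 8 also passed the filter on low counts, which left 10159 genes. Muscles came from wild type C57BL/6 mice that either breathed normal air (11 samples) or were exposed to tobacco smoke for 16 weeks (13 samples). The labels give no age and do not say that each sample is a separate mouse, so the p-values measure the spread between these samples.

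The complex spans the membrane of the muscle fibre and couples the cytoskeleton to the matrix outside. Dystrophin, or its paralogue utrophin, binds actin inside the fibre and the tail of beta-dystroglycan at the membrane. Alpha-dystroglycan, cut from the same precursor, binds laminin outside through sugar chains that a dedicated set of enzymes builds. The sarcoglycans and sarcospan form a subcomplex in the membrane that steadies this link, and dystrobrevin and the syntrophins attach signalling proteins to it. Loss of dystrophin or of a sarcoglycan causes muscular dystrophy. In adult fibres utrophin is concentrated at the neuromuscular and myotendinous junctions, and it is also made by other cell types, Schwann cells of the nerve among them.

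The libraries were made by 3′-end sequencing, which reads each transcript close to its tail, so that levels of different genes, given in CPM (a gene's count relative to the scaled library total), can be set side by side without division by gene length. For Dmd this also means that transcripts from different start sites cannot be separated where they share a 3′ end. The gene spans 2257 kb of chromosome X in the GENCODE M21 annotation (GRCm38), with 3 protein-coding transcripts: 1 opens within 200 bases of the far upstream start, 2 within 200 bases of a start deep in the gene, and their ends lie within 3.64 kb. The 250 bases before each of these RefSeq starts (GRCm38.p6, plus strand) are shown because reads from both fall in the single Dmd row, and the window of Sgca (minus strand) because several smoke samples fell below the air range there. Capitals mark E-boxes (CANNTG, the same on both strands), the letters bound by myogenic transcription factors such as MyoD.
Dmd, upstream start, chrX:82948620-82948869: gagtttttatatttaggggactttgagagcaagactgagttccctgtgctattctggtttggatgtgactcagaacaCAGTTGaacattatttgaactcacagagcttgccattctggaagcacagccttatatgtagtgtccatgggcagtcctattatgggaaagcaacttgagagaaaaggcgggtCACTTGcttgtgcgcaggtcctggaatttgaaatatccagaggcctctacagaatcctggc
Dmd, downstream start, chrX:85048045-85048294: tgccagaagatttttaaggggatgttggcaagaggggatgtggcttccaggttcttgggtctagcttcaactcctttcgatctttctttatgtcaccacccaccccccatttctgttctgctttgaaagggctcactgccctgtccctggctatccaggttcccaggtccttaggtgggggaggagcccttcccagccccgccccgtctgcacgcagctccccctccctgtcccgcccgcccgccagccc
Sgca, chr11:94976328-94976577: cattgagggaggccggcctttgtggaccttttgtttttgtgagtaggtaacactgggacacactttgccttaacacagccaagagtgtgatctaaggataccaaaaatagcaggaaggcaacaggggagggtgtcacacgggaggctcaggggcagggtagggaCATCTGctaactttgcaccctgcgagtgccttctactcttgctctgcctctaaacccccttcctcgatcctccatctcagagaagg

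The upstream Dmd window held 2 E-boxes, opening 173 and 61 bases before the start, 2 CpG dinucleotides and 45.2% G and C. The downstream window held no E-box, 7 CpG dinucleotides and 60.0% G and C. The Sgca window held 1 E-box, 86 bases before the start. Of the 8 members, 7 had a window in the RefSeq table. Of their 10 windows 7 held an E-box, where 66.2% of all 32851 windows of 250 bases did. The Utrn window and 1 of Sspn end in CAG or TAG, letters like those of a splice acceptor, and of the other 8 windows 6 held an E-box. Both windows of Dag1 overlap and hold the same E-box. These are matches of letters and were not tested as binding sites.

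No member was called between smoke and air. In edgeR's quasi-likelihood test with Benjamini-Hochberg adjustment over all genes, 0 of 8 members passed an adjusted p of 0.05, where 1.92% of the 10159 tested genes did (195 genes, 0.728% higher and 1.19% lower in smoke). In 0 of 8 did the groups fail to overlap, beside 0.0295% of all tested genes. At an unadjusted p under 0.05 the count was 1 of 8, Utrn, beside 15.5% of all tested genes. DESeq2, which gave no adjusted p for Sgcd, called 0 of the other 7 (3.18% of all tested genes), and limma voom called 0 of 8 (1.72%). The count was also 0 with RLE scaling (1.98% of all tested genes), upper-quartile scaling (1.89%), no expression filter (0.727%), a CPM filter (1.52%) and without the 10 most abundant genes (2.02%). It was 0 with a replicate block (1.37%), 1 surrogate variable (4.37%), a clock gene index (0.384%), a threshold of 0.10 (4.07%), a Schwann cell marker covariate (0.876%) and without the 3 libraries with the highest Prx, a Schwann cell gene (1.44%). The log2 fold changes ran from -0.13 to 0.23, with 4 members above 0 and 4 below, a median of 0.0048 (0.0066 over all tested genes) and a median size of 0.10 (0.11 over all tested genes). In bulk muscle, fewer cells of a type and less RNA per cell cannot be told apart, here or in any level below.

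**Figure D1:**
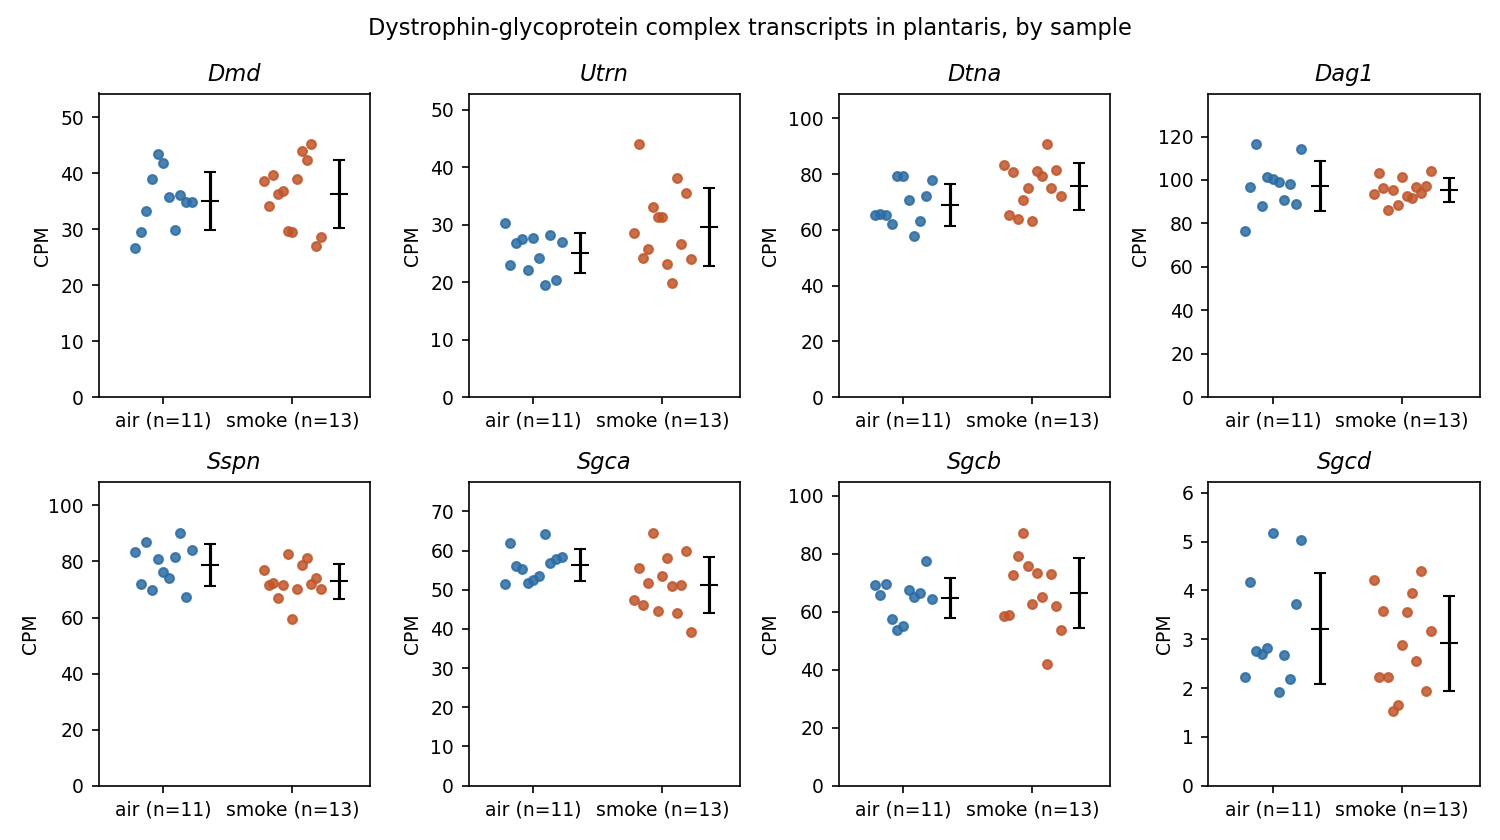
CPM of the 8 members in each sample (points, spread sideways only for visibility), with mean and SD (bars) over 11 air and 13 smoke samples; each vertical axis starts at 0. The groups overlap for every member; Utrn, Sgca and Sgcb spread more widely in smoke, and Dag1 more narrowly.

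Dmd encodes dystrophin, the rod that ties actin to dystroglycan. In air it was lowest at 26.7 CPM, with a median of 34.9 and a highest value of 43.5, and in smoke it ran from 27.1 through a median of 36.9 to 45.2 CPM. The ranges were nearly the same, with 11 of 13 smoke samples inside the air range and 2 above it. The means were 35.0 ± 5.15 (SD, n = 11) and 36.3 ± 6.07 (SD, n = 13) CPM. The log2 fold change was 0.049 (SE 0.091, edgeR adjusted p = 0.860), with a 95% interval from -0.14 to 0.23, which is 0.910-fold to 1.18-fold.

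Utrn, the autosomal paralogue that can take dystrophin's place, had the largest log2 fold change of the 8 over all samples. Without the 3 libraries with the highest Prx it was 0.084, and that of Sgca, at -0.15, was the largest in size. Air samples ran from 19.5 to 30.3 CPM with a median of 26.8, and smoke samples from 19.9 to 44.0 CPM with a median of 28.6. Of the 13 smoke samples, 7 lay inside the air range and 6 above it. The means were 25.1 ± 3.50 (SD) CPM in air and 29.7 ± 6.78 (SD) CPM in smoke. The difference was 0.23 on the log2 scale (SE 0.11, 95% interval 0.011 to 0.44). The unadjusted p was 0.0398 and the edgeR adjusted p was 0.287, so Utrn was not called. The coefficient of variation over samples was 13.9% in air and 22.8% in smoke.

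Dtna encodes alpha-dystrobrevin, a dystrophin relative that binds dystrophin and the syntrophins. It ran from 57.7 to 79.5 CPM in air (median 65.7) and from 63.2 to 90.8 CPM in smoke (median 74.9). In smoke, 5 of 13 samples lay above the highest air sample and none below the lowest. Its log2 fold change was 0.13 (SE 0.067, 95% interval -0.0044 to 0.27, edgeR adjusted p = 0.343).

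Dag1, the precursor of both dystroglycans and the most abundant member, had the log2 fold change nearest to 0 over all samples without covariates. Air samples ran from 76.6 to 117 CPM (median 98.3) and smoke samples from 86.1 to 104 CPM (median 95.3), so that all 13 smoke samples lay inside the air range. The SD was 11.5 CPM in air and 5.32 CPM in smoke. The log2 fold change was -0.028 (SE 0.059, 95% interval -0.15 to 0.091, edgeR adjusted p = 0.877), and without air replicate 3, its highest air sample, it was 0.00054. Sgcd was nearer to 0 in some alternatives. With the clock gene index Dag1 was at -0.11 and Sgcd at -0.056, and without the 3 libraries with the highest Prx they were at -0.045 and 0.0061.

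Sgca encodes the sarcoglycan most restricted to striated muscle. It ran from 51.4 to 64.1 CPM in air (median 56.0) and from 39.2 to 64.6 CPM in smoke (median 51.1). Of the 13 smoke samples, 7 lay below the lowest air sample, 5 inside the air range and 1 above it. The coefficient of variation was 7.25% in air and 13.9% in smoke. Its log2 fold change was -0.13 (SE 0.069, 95% interval -0.28 to 0.0062, edgeR adjusted p = 0.351).

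Sgcb, the beta subunit that forms the core of the subcomplex with delta-sarcoglycan, ran from 53.8 to 77.6 CPM in air (median 65.7) and from 42.1 to 87.2 CPM in smoke (median 65.1). Of the smoke samples 9 lay inside the air range, 2 above it and 2 below, and the coefficient of variation was 10.8% in air and 18.1% in smoke. The log2 fold change was 0.038 (SE 0.084, 95% interval -0.13 to 0.21, edgeR adjusted p = 0.887).

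Sgcd was read far more thinly than the others, at 7 to 16 counts a sample in air and 4 to 17 in smoke. Its means were 3.22 ± 1.14 (SD) CPM in air and 2.92 ± 0.974 (SD) CPM in smoke, where 3 counts correspond to 0.665 to 1.15 CPM. The log2 fold change was -0.087 (SE 0.21, edgeR adjusted p = 0.895). Its 95% interval ran from 0.704-fold to 1.26-fold, the widest of the 8.

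Sspn encodes a small membrane protein of the tetraspanin type that binds the sarcoglycans. It ran from 67.2 to 90.3 CPM in air (median 81.0) and from 59.4 to 82.8 CPM in smoke (median 72.0). Of the smoke samples 11 of 13 lay below the air mean, and 2 lay below the lowest air sample. The log2 fold change was -0.11 (SE 0.060, 95% interval -0.24 to 0.0084, edgeR adjusted p = 0.364).

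**Figure D2:**
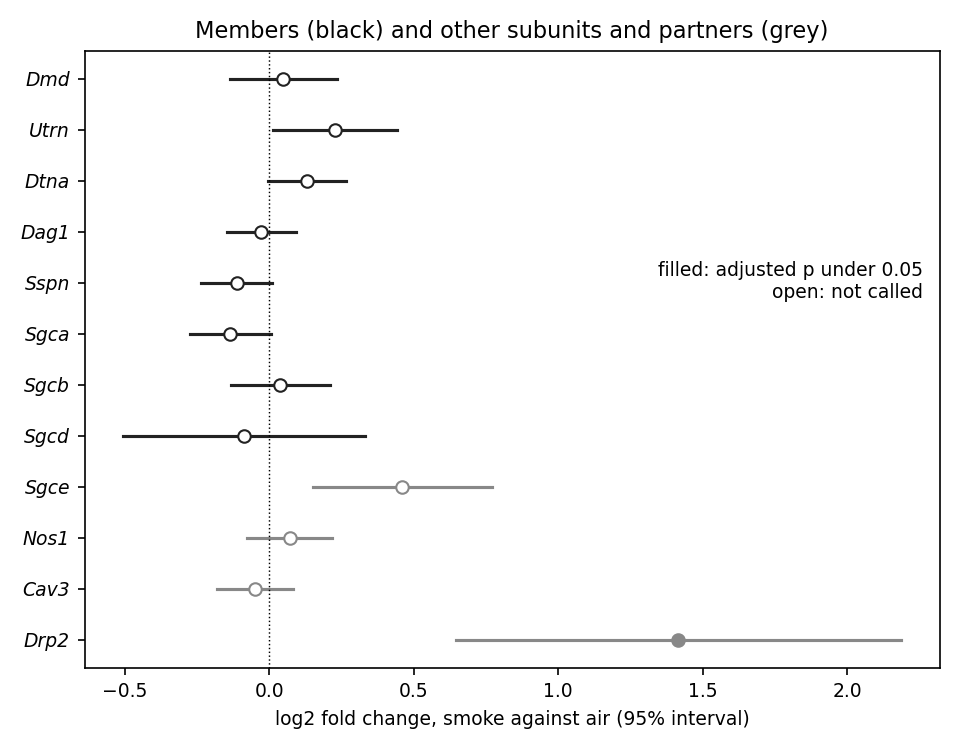
Log2 fold change (smoke against air, edgeR) with its 95% interval for the 8 members in black and the 4 tested other subunits and partners in grey; filled points passed an adjusted p of 0.05. Of the 12 genes, Drp2 alone is filled, at 1.42, and the interval of Sgcd is the widest among the members.

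By level, the members fell in the order Dag1, Sspn, Dtna, Sgcb, Sgca, Dmd, Utrn and Sgcd over all 24 samples, from a mean of 96.3 CPM for Dag1 to 3.05 CPM for Sgcd. Some neighbours in that order were not separated by the spread between samples. Sspn was above Dtna in 13 of 24 samples, in 9 of 11 air and 4 of 13 smoke samples, and Dtna was above Sgcb in 15 of 24. The other steps held in most samples: Dag1 over Sspn and Sgcb over Sgca in 23 of 24 each, Sgca over Dmd and Utrn over Sgcd in all 24, and Dmd over Utrn in 19 of 24.

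The ratio of utrophin to dystrophin transcripts within a sample is the measure in which these paralogues can be set against each other. It was 0.733 ± 0.161 (SD, n = 11) in air, from 0.509 to 1.14, and 0.850 ± 0.270 (SD, n = 13) in smoke, from 0.453 to 1.31. Utrn exceeded Dmd in 1 air sample and in 4 smoke samples, and 10 of 13 smoke ratios lay inside the air range. In smoke replicates 2, 10 and 12, the libraries with the highest Prx, the ratio was 1.29, 0.897 and 1.31. In the other 10 smoke samples it ran from 0.453 to 1.06. Among the sarcoglycans, the ratio of Sgcb to Sgca was 1.15 ± 0.125 (SD) in air and 1.30 ± 0.222 (SD) in smoke, and that of Sgcd to Sgcb was 0.0507 ± 0.0206 and 0.0457 ± 0.0171 (SD). These ratios are descriptions and were not tested.

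Correlations between the members from sample to sample were of mixed sign. After each group's mean was taken out, Pearson's r of log2 CPM over the 24 samples ranged from -0.41 (Utrn with Sgcd) to 0.47 (Sgca with Sgcb) over the 28 pairs, with a median of -0.024, 14 pairs above 0 and 14 below. Sgca with Sgcb gave 0.36 in air and 0.50 in smoke, and Dmd with Dtna 0.59 in air and 0.39 in smoke. The sign was the same in both groups in 16 of 28 pairs. Sspn with Dtna gave -0.11 in air and 0.71 in smoke. All of these values come from the same libraries and share their depth and scaling. Counting error also pulls r toward 0, most for Sgcd, at 4 to 17 counts a sample. A low r therefore does not show that 2 members vary apart.

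**Figure D3:**
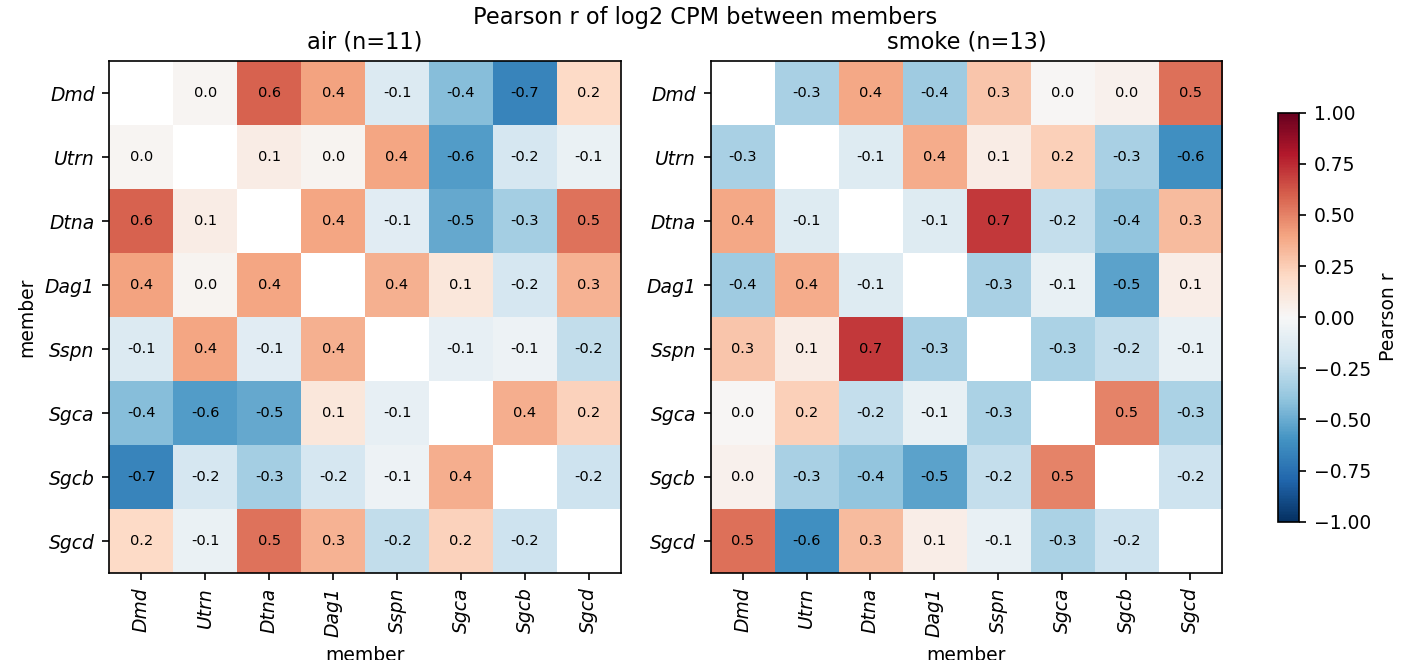
Pearson's r of log2 CPM between each pair of members over 11 air samples (left) and 13 smoke samples (right), on a colour scale from -1 to 1. Few pairs keep a high value in both groups; Sgca with Sgcb is 0.36 in air and 0.50 in smoke.

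Over the 24 samples, the 3 other genes of at least 10 CPM whose log2 levels ran most like each member's were the following, each the best of about 6110 genes compared and given with no test. For Dmd they were Ddx3x, an RNA helicase (r 0.86), Ktn1 (0.83) and Fxr1, an RNA-binding protein of muscle (0.82), with r in air of 0.86, 0.85 and 0.80 and in smoke of 0.86, 0.82 and 0.84. For Utrn they were Pygb, the brain form of glycogen phosphorylase (0.75), C1rl (0.74) and Ccdc60 (0.73). Utrn's r with Pygb was 0.29 in air and 0.90 in smoke. For Dag1 they were Ptov1, Fem1a and Fopnl (0.74 to 0.79), with r of 0.84 to 0.86 in air but 0.31 to 0.61 in smoke. For Dtna they were Elof1, Tor1b and 1700020I14Rik (0.70 to 0.76) and for Sspn Snrnp35, 2410015M20Rik and Prickle1 (0.63 to 0.65). For Sgca they were Atxn1l, Cwc15 and Stat5b (0.65 to 0.68), for Sgcb Tsc1, Tmtc1 and Slc41a3 (0.75 to 0.79) and for Sgcd Polg, Zfp777 and Strbp (0.70 to 0.83). The r of the Sgca genes was 0.45 to 0.65 in air and 0.74 to 0.81 in smoke, and that of the Sgcb genes 0.46 to 0.63 in air and 0.89 to 0.94 in smoke.

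Utrn was highest in the smoke samples where Prx and Pmp22, genes of myelinating Schwann cells, were highest. In smoke replicates 2, 10 and 12 Utrn stood at 44.0, 38.1 and 35.5 CPM, its 3 highest values of the study. Prx, which encodes periaxin, a Schwann cell protein, was also highest there, at 38.6, 18.3 and 23.5 CPM. In the other 10 smoke samples Prx lay between 1.78 and 8.37 CPM and Utrn between 19.9 and 33.1 CPM, and in air Prx lay between 2.01 and 6.46 CPM. Pmp22, a gene of peripheral nerve myelin, was at 116 to 142 CPM in those 3 libraries and at most 69.3 CPM in the other 10. The Schwann cell markers Mbp and S100b did not set those libraries apart. Mbp was at 76.2 to 99.5 CPM there, at most 96.3 CPM in the other 10 and at most 104 CPM in air. S100b was at 79.6 to 90.6 CPM there, at most 115 CPM in the other 10 and at most 96.4 CPM in air. Without those 3 libraries, chosen after the data were seen, the log2 fold change of Utrn was 0.084 (edgeR adjusted p = 0.780). Those smoke libraries hold its 3 highest values, so leaving them out had to lower the difference and does not test a link with Prx. With the summed Schwann cell marker level as a covariate, also added after the data were seen, the log2 fold change of Utrn was 0.033 (adjusted p = 0.943). That covariate itself correlated with exposure at r 0.50 over the 24 samples, so the fit shares their common part between the covariate and the group.

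The Schwann cell marker list held 5 genes, of which 4 passed the filter and 2 rose in smoke: Prx by 1.48 on the log2 scale (SE 0.39, edgeR adjusted p = 0.0362) and Pmp22 by 0.88 (SE 0.24, adjusted p = 0.0481). In the 10 smoke samples outside the high group the mean of Prx was 4.97 CPM, beside 3.46 CPM in air. For Pmp22 these means were 40.2 and 33.2 CPM. The list's summed level ran from 114.1 to 248.9 CPM in air and from 139.7 to 374.8 CPM in smoke, and no marker was at 0 throughout. Among smoke samples the log2 summed level and Utrn gave Pearson's r 0.73 and Spearman's rho 0.54 (n = 13). The r was 0.46 without replicates 2 and 10, the pair farthest from the median, and 0.20 over the 10 samples outside the high group, so it rested on those libraries. In air r was 0.19 and rho 0.073 (n = 11). By single gene, Utrn gave r 0.80 in smoke and 0.52 in air with Prx, 0.77 and 0.36 with Pmp22, 0.60 and 0.13 with Mbp, and 0.39 and 0.046 with S100b. For the other members the r with the summed level in smoke ran from -0.53 (Sgcd) and -0.45 (Sgcb) to 0.40 (Sspn), with Dmd at -0.35. Without replicates 2 and 10 these were -0.57, -0.073, 0.38 and -0.66, so the value of Sgcb rested on those libraries.

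Utrn was not the only member that ran with a marker list, among the 64 pairs of a member and a list, each described within a group with no test. In smoke Sgcb ran against the summed myofibre markers at r -0.80 and rho -0.62 (n = 13), at r -0.72 without replicates 10 and 11 and at -0.71 without the 3 libraries with the highest Prx. In air that r was -0.22 (n = 11). Dag1 in air gave r 0.77 with the myofibre, -0.71 with the endothelial and -0.72 with the smooth muscle and pericyte markers (n = 11), and 0.63, -0.68 and -0.37 without the pair of samples farthest from each list's median. In smoke these were 0.34, 0.25 and 0.31 (n = 13).

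**Figure D4:**
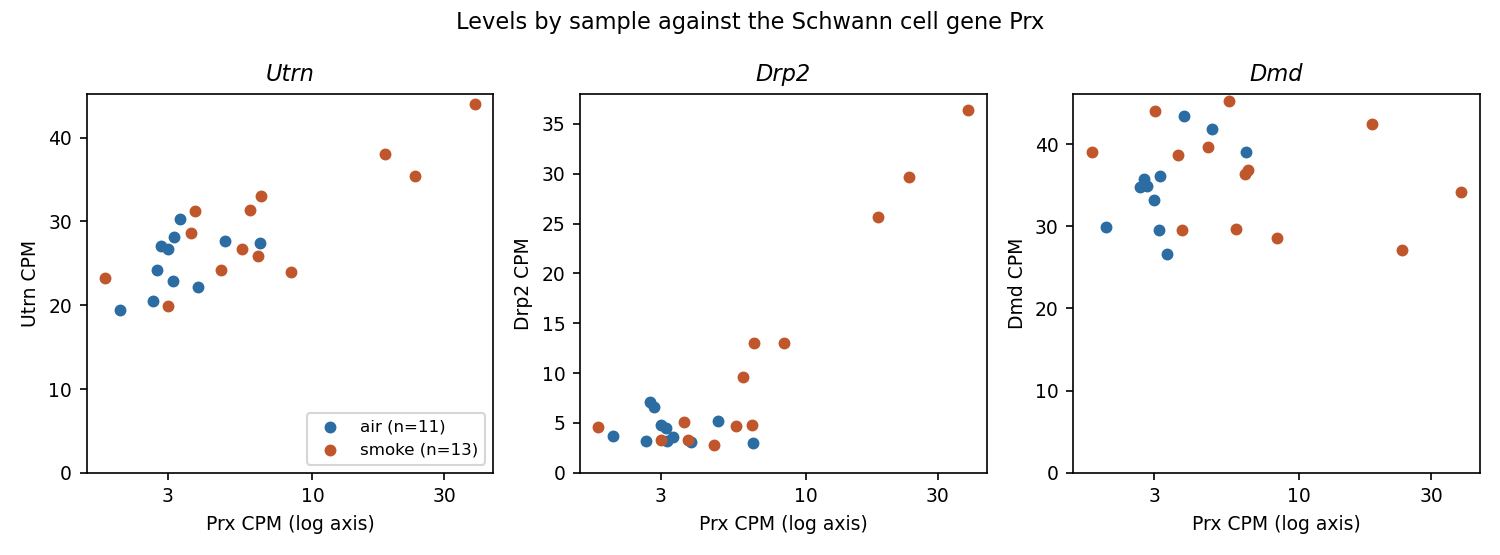
CPM of Utrn (left), Drp2 (middle) and Dmd (right) in each sample against CPM of the Schwann cell gene Prx on a log axis; blue, 11 air samples; orange, 13 smoke samples. The 3 smoke samples with Prx of 18.3 or more hold the 3 highest values of Utrn and of Drp2, while Dmd in them spans 27.1 to 42.5 CPM.

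Among 10 further subunits and cytoplasmic partners, 4 passed the filter, 1 rose, none fell and 3 did not pass the test. No median is given for so few genes. The gene that rose was Drp2, a dystrophin-related protein that in Schwann cells joins dystroglycan to periaxin, the product of Prx. Its values ran from 2.96 to 7.15 CPM in air (median 3.69) and from 2.75 to 36.4 CPM in smoke (median 5.05). The smoke samples were split, with replicates 2, 12 and 10 at 36.4, 29.7 and 25.6 CPM and the other 10 at 13.1 CPM or lower. Its difference was 1.42 on the log2 scale (SE 0.38, edgeR adjusted p = 0.0399), and 10 of 13 smoke samples exceeded the mean of the air samples. Without those 3 libraries it was 0.52 (adjusted p = 0.376), and with the Schwann cell marker covariate 0.19 (adjusted p = 0.857). Those 3 smoke libraries hold the highest Drp2 values, so leaving them out had to lower the difference. Leaving out single libraries ended the call in 14 of 24 fits: air replicates 1 to 6 and 8 to 10 and smoke replicates 2, 5, 6, 10 and 12, with log2 fold changes from 1.14 to 1.44. So did limma voom at 0.85 (adjusted p = 0.270), the replicate block at 0.87 (adjusted p = 0.182) and the clock gene index at 1.10 (adjusted p = 0.346). Drp2 followed the summed Schwann cell marker level in smoke at r 0.89 (rho 0.82, n = 13), at 0.79 without replicates 2 and 10, and at 0.61 over the 10 smoke samples outside the high group. In air r was 0.069 (rho 0.073, n = 11), and -0.50 without replicates 6 and 9.

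The other 3 tested partners were not called. Cav3, the caveolin of muscle, stood at 125 ± 17.4 (SD) CPM in air and 121 ± 9.05 (SD) CPM in smoke (log2 fold change -0.050, edgeR adjusted p = 0.772). Nos1, the neuronal nitric oxide synthase that the complex holds at the membrane, stood at 44.9 ± 5.84 (SD) CPM in air and 47.1 ± 4.81 (SD) CPM in smoke (0.070, adjusted p = 0.710). Sgce, a sarcoglycan also made outside muscle, had a log2 fold change of 0.46 (SE 0.15, adjusted p = 0.108). Sgce ran from 3.50 to 10.2 CPM in air and from 6.06 to 13.4 CPM in smoke, with 7 of 13 smoke samples above the air range. The 6 under the filter (Sgcz, Sntb1, Sntb2, Sntg1, Sntg2 and Dtnb) had at most 19 counts in any sample, and Sgcz had 0 counts over all air and 2 over all smoke samples.

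None of the 10 genes for the matrix ligands of the complex was called, and at an unadjusted p under 0.05 there were 2 (1.92% and 15.5% of all tested genes). Their median log2 fold change was -0.071, with 8 of 10 below 0, where 4915 of all 10159 tested genes were. Lamb2, a laminin chain, was at 148 ± 32.5 (SD) CPM in air and 124 ± 15.0 (SD) CPM in smoke, which differ by -0.25 on the log2 scale (SE 0.086, edgeR adjusted p = 0.115). It was called at -0.29 without smoke replicate 13 (adjusted p = 0.0491). Without air replicate 11, its highest sample, Lamb2 was at -0.17 and not called. Hspg2, the proteoglycan perlecan, had -0.20 (adjusted p = 0.213), and -0.29 with the replicate number as a block (adjusted p = 0.0318). Bgn, the proteoglycan biglycan, had -0.19 (adjusted p = 0.332). Of 7 fibroblast markers 0 were called, 3 had an unadjusted p under 0.05 and 6 had a log2 fold change below 0, with a median of -0.22. Their summed level ran from 243.7 to 378.8 CPM in air and from 227.6 to 383.2 CPM in smoke, none was at 0 throughout, and their part in the ligand values was not tested.

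The enzymes that build the laminin-binding sugar of dystroglycan were not called either, 0 of 15 tested of 17 measured, with 4 at an unadjusted p under 0.05, 5 log2 fold changes above 0 and 10 below, and a median of -0.056. The most abundant were B3galnt2, a glycosyltransferase, at 0.26 (edgeR adjusted p = 0.319), Pomgnt1, another, at -0.18 (adjusted p = 0.318) and Dpm3, a subunit of the enzyme that makes the mannose donor, at -0.14 (adjusted p = 0.500). With the clock gene index B3galnt2 was at 0.55 and Dpm3 at -0.36, and with the Schwann cell marker covariate B3galnt2 was at 0.45, none of them called. Of 16 tested costamere and integrin adhesion genes 0 were called, with 2 at an unadjusted p under 0.05 and a median of -0.064. There Des (desmin), Ldb3 and Synm (synemin, an intermediate filament protein that binds dystrophin) had -0.059, -0.033 and -0.027 (adjusted p = 0.632, 0.838 and 0.857). Flnc, filamin C, which binds the sarcoglycans, was named after its value was seen, at -0.26 (adjusted p = 0.133). It was called without smoke replicate 11. Of 13 tested membrane repair and caveola genes 0 were called, with 3 at an unadjusted p under 0.05 and a median of -0.074. Ahnak had 0.13 (adjusted p = 0.239), Cavin1 0.052 (adjusted p = 0.725) and Anxa6 -0.15 (adjusted p = 0.313), or -0.34 with the clock gene index (adjusted p = 0.0771).

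**Figure D5:**
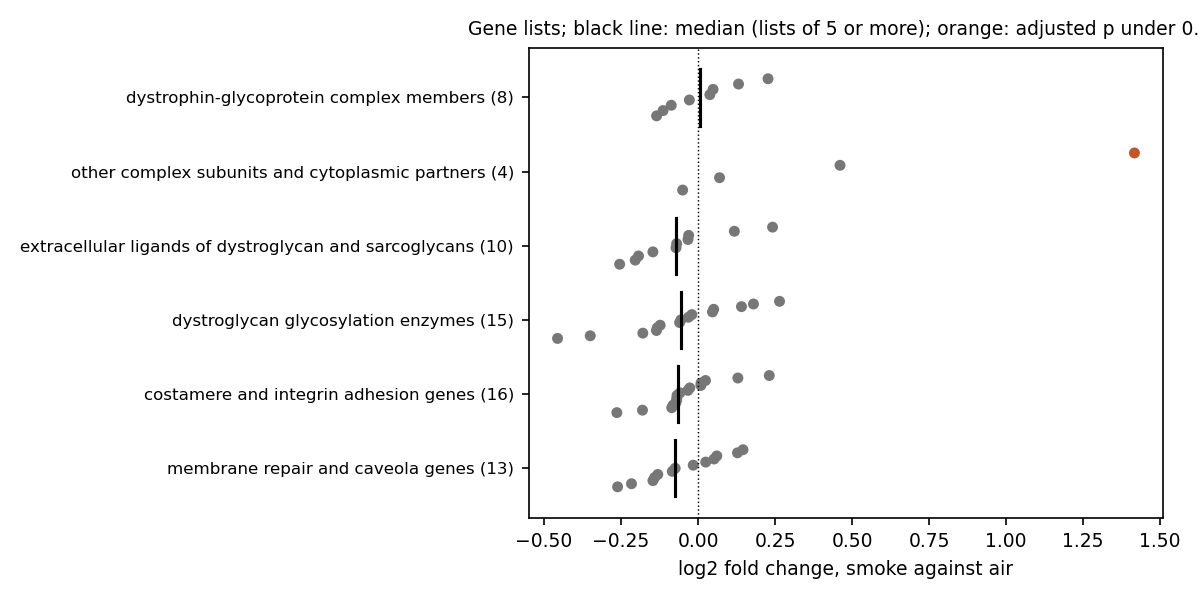
Log2 fold change (smoke against air) of each tested gene in the 8 members and in 5 lists of functionally linked genes, with the number tested in brackets; black lines are medians of lists with at least 5 tested genes and orange marks genes that passed an adjusted p of 0.05. Drp2, at 1.42, is the single orange point of the 6 rows.

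The libraries held 2515697 to 4528845 counts each. The summed level of 10 myofibre markers ran from 129817 to 199244 CPM in air and from 138910 to 173558 CPM in smoke, with none called. The single markers differed widely in level, and Myh7 lay between 3.57 and 34.8 CPM over all samples. Of the marker lists of other cells, 0 of 8 endothelial, 0 of 5 smooth muscle and pericyte, 0 of 4 macrophage and 0 of 5 satellite cell and regeneration genes tested were called, while 3 of 5 blood cell genes fell (1.19% of all tested genes fell). All 5 blood cell genes had a log2 fold change below 0, with a median of -0.73. Their summed level had a median of 765 CPM in air and 558 CPM in smoke. The sample sheet numbers in the column names separate smoke from air completely, so exposure and sheet position cannot be told apart. Antisense or nested genes overlap Dmd, Utrn, Sgca, Sgcb, Sgcd, Sspn and Dtna in the annotation, none of them over the annotated 3′ end of the gene.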

How the data were processed

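The members, gene lists and tests were chosen with earlier results of these data known. The table the authors deposited holds unnormalized read counts, with genes as Ensembl IDs in rows and samples in columns. Per the labels' protocols, the kit was Lexogen QuantSeq 3′ FWD. The submitters' processing notes name STAR, DESeq2 and the build mm9. Counting tool, annotation, strand use and molecular identifiers were not given in the sources used here, so PCR copies may be included. The 95% intervals of log2 fold changes come from the fit over samples and include the spread between them, and the floor of 3 counts covers counting error only. Symbols came from GENCODE M21 (GRCm38), which held 47224 of 47643 IDs, and promoter windows from RefSeq GRCm38.p6. Because the named build differs, no gene coordinates are given beyond those windows.

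Counts were filtered with filterByExpr (minimum count 10), scaled by TMM and tested with edgeR 4.0.16 (R 4.3.3, quasi-likelihood F-test, 24 samples, no covariates, adjusted p under 0.05). The standard error is the log2 fold change divided by the root of F. Log2 CPM used a prior count of 2. Tested on simulated data (10002 genes), the procedure recovered 95.8% of 2-fold and 70.2% of 1.5-fold changes and called 0 genes when none changed. Within groups, 133 pairs of samples differed by more than sampling noise (chi-square per gene 2.52 to 18.5), so none were merged.

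Genes named were the members, called genes and the 3 most abundant genes of each partner list, and the 3 genes most like each member over 24 samples. Others are said to be chosen after their values were seen. Alternatives were leaving out each sample, 1 surrogate variable (sva 3.50.0), a clock gene index, the replicate block, DESeq2 1.42.0, voom in limma 3.58.1, scaling by RLE or by the upper quartile, 2 other filters, removal of the 10 most abundant genes and a threshold of 0.10. A Schwann cell marker covariate and removal of the 3 libraries with the highest Prx were added after the data were seen. Some genes of the partner and marker lists are not reported here and were left out of the lists' counts, medians and sums.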

Additional observations from a re-analysis of the deposited data

How the results depend on the processing

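Over 37 alternatives (24 that leave out 1 sample each and 13 others) no member was called, and the smallest adjusted p of any member was 0.194. Member log2 fold changes kept their sign in 288 of 290 comparisons; the exceptions were Sgcd at 0.0061 without the 3 libraries with the highest Prx and Dag1 at 0.00054 without air replicate 3. Leaving out samples in turn moved Utrn between 0.17 and 0.27, Dmd between 0.013 and 0.084, Dag1 between -0.060 and 0.00054, Sgca between -0.16 and -0.11, Sgcb between 0.0015 and 0.077, Sgcd between -0.15 and -0.0069, Sspn between -0.14 and -0.092 and Dtna between 0.11 and 0.15. The clock index moved Utrn to 0.30, Sgcb to 0.17, Dag1 to -0.11, Dtna to 0.071, Sgca to -0.074 and Sgcd to -0.056. The replicate block moved Dmd to 0.11. The Schwann cell marker covariate moved Dmd to 0.095, Utrn to 0.033, Sgcb to 0.13 and Sgcd to -0.0098. Without the 3 libraries with the highest Prx, Sgcb was at 0.11. Sgcd fell under the expression filter in 5 of these 24 fits and has no value there. It had 4 to 17 counts a sample, which limits its precision. The clock index correlated with exposure at r 0.72.

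The count over all genes was 323 with DESeq2, 444 with 1 surrogate variable, 39 with the clock index, 413 at an adjusted p under 0.10, 89 with the Schwann cell marker covariate and 141 to 254 when samples were left out; the cause was not tested. Called partners went from 1 to 0 with limma voom, the replicate block, the clock index, the Schwann cell marker covariate and without the 3 libraries with the highest Prx, and lay between 0 and 1 when samples were left out, as did the counts of ligands and of costamere genes. The adjusted p of Drp2 ranged from 0.00197 to 0.857. Ligands went to 1 under the replicate block (Hspg2) and with 1 surrogate variable (Lamb2), and membrane repair genes to 1 without the 3 libraries (Anxa2). Signs of small values that were never called also turned: Ldb3 at 0.054 (clock index), 0.014 (without the 3 libraries) and 0.032 (Schwann cell marker covariate), and Synm at 0.010 (Schwann cell marker covariate). The clock index moved Cav3 to -0.20, Des to -0.12, Ahnak to 0.065 and Cavin1 to 0.097, and the smallest adjusted p of B3galnt2 was 0.0617, with 1 surrogate variable. Without the 3 libraries Cavin1 was at 0.015 and Ahnak at 0.077, and with the Schwann cell marker covariate at 0.012 and 0.093. The replicate numbers did not pair the samples: deviations of the 11 same-numbered pairs correlated at a mean r of -0.0059, against 0.0011 over 132 other pairs, and 2 of 11 air samples correlated best with the smoke sample of their own number. The replicate block, which leaves out smoke replicates 12 and 13 because air has no such numbers, gave 138 genes and 0 members.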
